A study of Mus musculus with 9 samples.

Results

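The protocadherins were examined on 9 mouse microarrays of a glioma model and normal brain cells. They were taken as every non-control probe whose gene name is that of an alpha, beta or gamma cluster gene with a number, or of a numbered single protocadherin, with 1 gene left out by the same rule. That gave 54 probes with 44 gene names, of 55666 probes with 34789 gene names on the array: 6 alpha probes, 22 beta probes, 7 gamma probes and 19 probes of 11 single genes. The study set tumours and tumour cells of the MADM model against normal cells of the brain. MADM (mosaic analysis with double markers) is a mouse strain background in which recombination between chromosomes leaves scattered mutant cells and normal sister cells, marked by fluorescent proteins. The first group was brain tumour tissue from MADM mice whose EZH2 is labelled as knocked out (3 arrays). The second was glioma cells of MADM brain tumours, with no EZH2 genotype in their labels (2 arrays). The others were neural stem cells (NSCs, 2 arrays) and astrocytes (2 arrays), both from the brain of wild-type C57BL/6J mice. Ages, the Cre driver, the tumour alleles and the culture of the cells are not given in the sources used here. The labels do not say whether replicates came from separate animals or cultures, so p-values measure only the spread between these arrays, which may be technical.

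Protocadherins are cell-surface adhesion proteins of the cadherin superfamily. The alpha, beta and gamma genes lie one after another in tandem clusters. In the alpha and gamma clusters, each variable exon has its own promoter and is spliced to constant exons that every transcript of the cluster shares. Beta genes have a single coding exon and no shared end. Each neuron turns on a small set of variable promoters, chosen with the help of CTCF and cohesin and held by DNA methylation, and the proteins bind their own kind on facing membranes, which lets branches of 1 neuron avoid each other. The single genes, mostly of the delta group, are spread over the genome, show more regional patterns and bind cytoplasmic partners such as the WAVE complex.

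The promoters of 3 single genes are shown because these genes had the patterns the results turn on: Pcdh17 was low in astrocytes, Pcdh20 was high in the tissue alone, and Pcdh10 did not pass the test between any groups. In human tumours the promoters of all of them have been described as methylated at CpG sites. Each run holds the 250 bases before the gene's start, 5′ to 3′ on the gene's own strand, from RefSeq on GRCm38.p6, with every CG in capitals (CG reads the same on both strands).
Pcdh17, chr14:84443313-84443562, plus strand: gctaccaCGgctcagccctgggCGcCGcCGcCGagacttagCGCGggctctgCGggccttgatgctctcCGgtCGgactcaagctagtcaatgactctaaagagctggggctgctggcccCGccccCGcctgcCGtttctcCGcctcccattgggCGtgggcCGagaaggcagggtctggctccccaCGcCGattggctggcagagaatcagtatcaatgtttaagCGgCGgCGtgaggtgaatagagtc
Pcdh20, chr14:88471397-88471646, minus strand: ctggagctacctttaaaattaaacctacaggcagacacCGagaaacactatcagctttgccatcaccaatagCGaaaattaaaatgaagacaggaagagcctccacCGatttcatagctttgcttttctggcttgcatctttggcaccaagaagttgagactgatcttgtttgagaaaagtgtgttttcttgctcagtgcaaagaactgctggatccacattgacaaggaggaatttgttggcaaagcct
Pcdh10, chr3:45378148-45378397, plus strand: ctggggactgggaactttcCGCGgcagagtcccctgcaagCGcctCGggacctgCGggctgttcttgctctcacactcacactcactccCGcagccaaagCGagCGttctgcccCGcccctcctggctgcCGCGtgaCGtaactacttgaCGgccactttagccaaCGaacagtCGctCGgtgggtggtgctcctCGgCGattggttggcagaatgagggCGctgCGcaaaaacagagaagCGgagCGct
The Pcdh17 window held 21 CG and that of Pcdh10 held 22. As many as in Pcdh17 stood in 16.3% of the 32851 promoter windows of the same length, and as many as in Pcdh10 in 14.8%. The Pcdh20 window held 3, a number that 71.0% of windows reached. A promoter window was matched for 8 of the 11 single genes, and the other five held 7 for Pcdh7, 11 for Pcdh8, 16 for Pcdh19, 18 for Pcdh9 and 23 for Pcdh18. Methylation was not measured on these arrays.

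Levels are log2 processed signal minus the array's 75th percentile, so that 0 is the brightness of that percentile. Probes differ in how brightly they bind, so a level is compared between arrays and not between probes. The tests took in the probes that stood well above background on all arrays of 1 or more of the fitted groups. A probe was called changed at a limma adjusted p under 0.05 over all tested probes with a difference of at least 2-fold. Of the 54 probes, 35 were well above background on all 9 arrays.

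The share of spots well above background ran from 60.1% to 65.7% over the arrays, and 0 spots were saturated. The 3 tissue arrays shared 1 slide and scan and the 6 cell arrays another, with different versions of the extraction software, so tissue cannot be told apart from slide, scan and software. Ezh2, the methyltransferase of the Polycomb complex that is labelled as knocked out in the tissue, was at 1.91, 1.62 and 1.48 in the tissue, 3.03 and 3.24 in glioma cells, 2.14 and 3.38 in NSCs, and 0.19 and -0.58 in astrocytes. It was not lost from the tissue, where the difference from glioma cells was -1.46 (SE 0.42, adjusted p = 0.053), and whether its probe at chr6:47480307-47480366 (mm9) lies in the deleted part is not known. Oligodendrocyte precursor markers averaged 4.33 to 4.83 in the tissue, 4.23 and 4.94 in glioma cells, 2.66 and 3.96 in NSCs, and -0.98 and -1.48 in astrocytes. The 10 astrocyte markers averaged 3.33 and 2.12 in astrocytes, where 9 were above background on each array and Slc6a11 was not. Astrocyte arrays 1 and 2 also averaged 3.43 and 3.82 for 10 microglia markers and 1.11 and 5.51 for 8 fibroblast and meningeal markers, all of them above background. The same lists averaged -3.35 and -3.19 for microglia and -2.92 and -4.38 for fibroblasts in glioma cells. The astrocyte list averaged -1.37 and -1.66 in glioma cells, where Gja1 and Gjb6 lay at -7.14 or below and S100b, at 7.47 and 6.08, was above its 4.87 and 2.39 in astrocytes. The 10 NSC and radial glia markers averaged 3.72 and 3.59 in NSCs and were all above background there. On this list the glioma cell arrays stood apart, at 0.64 with 7 markers above background on array 1 and 2.62 with all 10 on array 2. Sox2 was at -7.55 and 2.29 on them. The NSC arrays stood apart on the astrocyte list, with a mean of 2.92 on array 1, above that of astrocyte array 2, and -0.22 on array 2. The tissue carried markers of all these types, with neuronal markers at 2.07 to 3.69 against 0.57 or lower on every cell array. The part of these markers in the protocadherin differences was not tested. In bulk RNA, fewer cells of a type and less RNA per cell cannot be told apart.

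**Figure D1:**
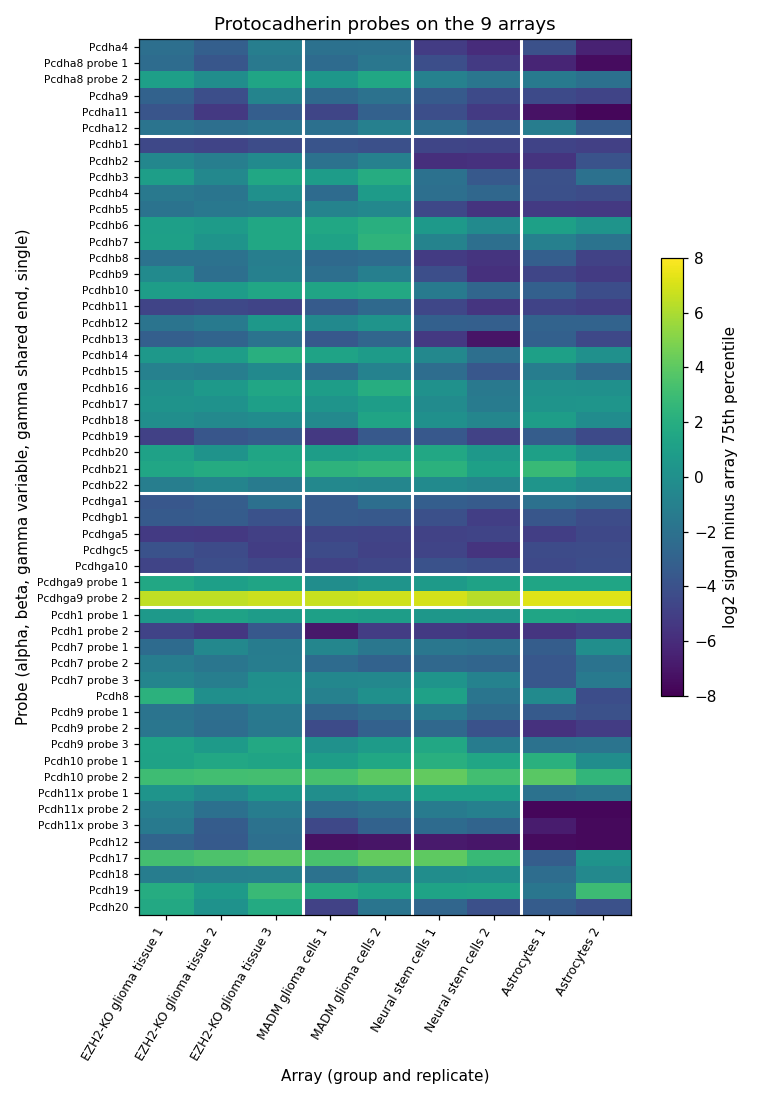
Level of each of the 54 protocadherin probes (rows, by cluster) on each of the 9 arrays (columns, by group), as log2 signal minus the array's 75th percentile. Colours are to be read along a row. Most alpha rows and most of the first 12 beta rows are brighter in the tissue and the glioma cells. The gamma rows differ little, and those outside the shared end are dim in all groups. Pcdh12 is bright in the tissue alone.

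Across the family, 17 of the 52 tested probes were higher and 1 was lower in glioma cells than in astrocytes, where 9.82% of all tested probes were higher and 9.95% lower. Between glioma cells and NSCs, 2 of 52 probes were higher and none was lower, against 0.613% higher and 0.334% lower among all tested probes. Both glioma cell arrays lay above both NSC arrays for 23 of the 52 probes, and this held for 19.4% of all tested probes. Between NSCs and astrocytes, 5 of 52 were higher and none was lower, where 8.22% of all were higher and 7.89% lower. Of the 52 tested, 7 probes entered through 1 group alone: Pcdha4, Pcdha8 probe 1, Pcdha11 and Pcdhb2 through glioma cells, where they were high, and Pcdhb19, Pcdhga5 and Pcdhgc5 through astrocytes. The calls of the first 4 of these over astrocytes favour the group that let them in, so they are given as a description.

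In the tissue, 3 of 53 tested probes were higher and 1 was lower than in glioma cells, against 7.48% and 8.26% of all tested probes. Against NSCs, 13 of 53 were higher in the tissue and none was lower, against 7.26% and 9.42% of all. Against astrocytes, 21 of 53 were higher in the tissue and 1 was lower, against 11.0% and 11.5%. Here 3 of the 53 tested probes entered through 1 group alone, Pcdh12 through the tissue, Pcdha11 through glioma cells and Pcdhga5 through astrocytes. Pcdha4, Pcdha8 probe 1 and Pcdhb2 entered through the tissue and glioma cells alone. Their calls in the tissue over normal cells favour the groups that let them in, so they are given as a description. These comparisons share groups: glioma cells, NSCs and astrocytes each stand in 3 of them.

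The median difference over all 54 probes was 0.89 in glioma cells against astrocytes, where all 55666 probes had a median of 0.29. It was 0.55 against -0.01 for glioma cells over NSCs, and 0.05 against 0.24 for NSCs over astrocytes. For the tissue it was -0.11 over glioma cells, where that of all probes was -0.11 too, 0.84 over NSCs against -0.10, and 1.19 over astrocytes against 0.15. Without scaling between arrays, in the authors' deposited values, the median of all tested probes shifted by up to 0.54 and the share of calls that were higher moved to 31.4% beside 49.7% for glioma cells over astrocytes, to 27.7% beside 51.0% for NSCs over astrocytes, to 81.2% beside 47.5% for tissue over glioma cells and to 77.9% beside 43.5% for tissue over NSCs.

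The alpha genes were higher in glioma cells than in astrocytes for 5 of 6 probes, all but Pcdha12, where 9.82% of all tested probes were higher. Of these 5, 3 (Pcdha4, Pcdha8 probe 1 and Pcdha11) had entered the test through glioma cells alone. None of the 6 was called between glioma cells and NSCs, or between the tissue and glioma cells, and the medians were 2.03 and -0.30. Of all tested probes, 0.613% were higher and 0.334% lower in the first, and 7.48% and 8.26% in the second. Each alpha protein has its own adhesive ectodomain, set by its variable exon, and these probes lie along chr18:37114742-37182276 (mm9). Pcdha8 probe 1, at chr18:37153996-37154055, was at -2.37, -3.75 and -1.52 in the tissue, -2.38 and -1.66 in glioma cells, -4.14 and -5.29 in NSCs, and -6.33 and -7.48 in astrocytes. All 3 tissue arrays and both glioma cell arrays lay above both NSC arrays, and the astrocyte arrays lay lowest and were not well above background. Glioma cells were thus at least 11.3-fold above astrocytes (adjusted p = 0.00751) and the tissue at least 7.86-fold (adjusted p = 0.00533). Such a lower limit sets the bright group against the dimmest signal that passes as well above background on each array of the dim group, or the probe's own signal if that is higher. The adjusted p beside a limit, here and below, is that of the fit to the measured signals. These include signals not well above background, so the p does not test the limit.

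Pcdha8 probe 2, at chr18:37154205-37154264, also lists transcripts of Pcdha7 and Pcdha4 and may read them. Its levels were 1.04, -0.18 and 1.39 in the tissue, 0.46 and 1.56 in glioma cells, -0.99 and -1.74 in NSCs, and -1.40 and -2.10 in astrocytes. Glioma cells were above astrocytes by 2.76 (SE 0.52, adjusted p = 0.0232), and the tissue was above astrocytes by 2.50 (SE 0.56, adjusted p = 0.0179) and above NSCs by 2.12 (SE 0.56, adjusted p = 0.04). Pcdha4, at chr18:37114742-37114801, whose probe also lists a readthrough transcript named Gm37013, was at -2.14, -3.14 and -1.18 in the tissue, -2.01 and -1.95 in glioma cells, -5.15 and -5.97 in NSCs, and -4.04 and -6.46 in astrocytes. The NSC and astrocyte arrays lay below all others, with astrocyte array 1 nearest to them. The difference was 3.27 in glioma cells against astrocytes (SE 0.82, adjusted p = 0.0461), 3.40 in the tissue against NSCs (SE 0.78, adjusted p = 0.0251) and 3.09 in the tissue against astrocytes (SE 0.78, adjusted p = 0.0267).

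Pcdha9, at chr18:37159948-37160007, was at -2.95, -4.19 and -0.77 in the tissue, -2.51 and -1.97 in glioma cells, -3.46 and -4.38 in NSCs, and -4.39 and -4.74 in astrocytes. Tissue array 2 lay among the NSC arrays, and the tissue was not called against any group. Glioma cells were above astrocytes by 2.32 (SE 0.43, adjusted p = 0.0217). Pcdha11, at chr18:37172501-37172560, was at -3.76, -5.34 and -3.20 in the tissue, -4.64 and -3.05 in glioma cells, -4.14 and -5.27 in NSCs, and -7.20 and -7.73 in astrocytes. Astrocytes were not well above background on either array, so the limits were at least 3.19-fold for glioma cells (adjusted p = 0.0212), at least 1.76-fold for NSCs (adjusted p = 0.0474, with 1 of 2 NSC arrays above background) and at least 2.67-fold for the tissue (adjusted p = 0.016, with 2 of 3 tissue arrays above background). Pcdha12, at chr18:37182217-37182276, was at -1.86, -2.16 and -1.77 in the tissue, -2.11 and -1.04 in glioma cells, -2.24 and -3.34 in NSCs, and -1.21 and -3.50 in astrocytes. Its groups overlapped in part, and the difference of glioma cells from astrocytes was 0.78, with a 95% interval of -1.42 to 2.97.

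The alpha calls rested on few arrays. Of those between glioma cells and astrocytes, only that of Pcdha8 probe 1, which had entered through glioma cells alone, was kept in each of the 6 fits that left out 1 array. Those of Pcdha11 and Pcdha8 probe 2 were lost without glioma cell array 2 or either astrocyte array, and that of Pcdha9 without any array of these groups. That of Pcdha4 was lost in every such fit other than the one without astrocyte array 1. The Pcdha11 call of NSCs over astrocytes was lost without any of those 4 arrays. For the tissue over astrocytes, Pcdha8 probe 1, which had entered through the tissue and glioma cells alone, was kept in all 9 fits. Pcdha11 was lost there without either astrocyte array, and Pcdha4 without tissue array 1 or 3 or astrocyte array 2. Pcdha8 probe 2 was lost without tissue array 1 or 3 or either astrocyte array. Over NSCs, Pcdha4 and Pcdha8 probe 2 were lost without tissue array 1 or 3 or either NSC array, and Pcdha8 probe 2 also without either astrocyte array.

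**Figure D2:**
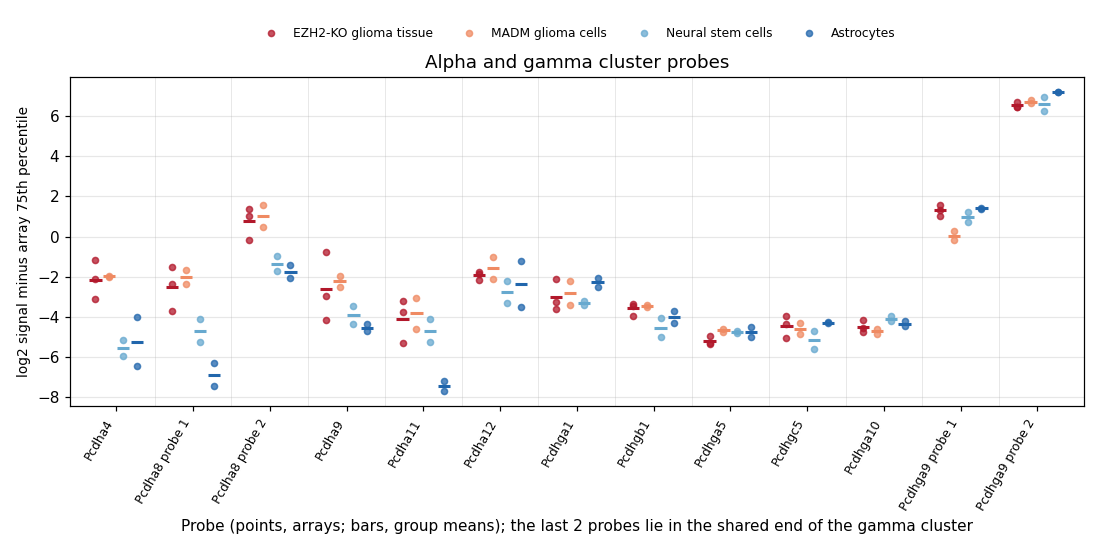
Levels of the 6 alpha probes, the 5 gamma probes outside the shared end of the cluster and the 2 probes in it (y axis, log2 signal minus the array's 75th percentile); points are arrays and bars are group means. The alpha probes other than Pcdha12 are lowest in astrocytes or NSCs. These 5 gamma probes are dim and lie within about the same range in all groups, and Pcdhga9 probe 1 is lowest in glioma cells.

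The beta genes were the largest set, with 1 probe for each of the 22 genes from Pcdhb1 to Pcdhb22, placed in the order of their names along chr18:37427011-37680728 (mm9). In glioma cells 8 of 22 were higher than in astrocytes and none was lower: Pcdhb2, Pcdhb3, Pcdhb5, Pcdhb7, Pcdhb9, Pcdhb10, Pcdhb11 and Pcdhb12. Of all tested probes, 9.82% were higher and 9.95% lower. Pcdhb5 and Pcdhb12 were also higher in glioma cells than in NSCs, where 0.613% of all tested probes were higher. In the tissue, 8 were higher and Pcdhb22 was lower than in astrocytes, where 11.0% of all tested probes were higher and 11.5% lower. There 9 were higher than in NSCs, where 7.26% of all were higher. Only Pcdhb11 was called in the tissue against glioma cells, as lower, where 8.26% of all were lower. No beta gene was called between NSCs and astrocytes, where the median was -0.45 and 8.22% of all tested probes were higher and 7.89% lower. Beta proteins bind in the same homophilic way as the alpha and gamma proteins.

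Pcdhb5, at chr18:37482661-37482720, was at -1.93, -1.62 and -1.33 in the tissue, -0.85 and -0.52 in glioma cells, -4.53 and -5.59 in NSCs, and -5.25 and -5.35 in astrocytes. Both tumour groups lay above all 4 arrays of normal cells, with no overlap. Glioma cells were above astrocytes by 4.61 (SE 0.43, adjusted p = 0.00399) and above NSCs by 4.37 (SE 0.43, adjusted p = 0.0298). The tissue was above NSCs by 3.43 (SE 0.37, adjusted p = 0.00175) and above astrocytes by 3.67 (SE 0.37, adjusted p = 0.00105).

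Pcdhb10, at chr18:37574021-37574080, was at 0.92, 0.86 and 1.44 in the tissue, 1.32 and 1.68 in glioma cells, -1.38 and -2.72 in NSCs, and -3.07 and -4.21 in astrocytes. Its difference was 5.14 in glioma cells against astrocytes (SE 0.60, adjusted p = 0.00695), the greatest of the beta cluster, and 4.71 in the tissue against astrocytes (SE 0.50, adjusted p = 0.00124). NSC array 1 lay nearer to the tumour groups, and glioma cells were above NSCs by 3.55 without passing the test (adjusted p = 0.0789). The tissue was above NSCs by 3.12 (SE 0.50, adjusted p = 0.00697).

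Pcdhb12, at chr18:37597767-37597826, was at -1.82, -1.39 and 0.56 in the tissue, -0.39 and 0.27 in glioma cells, -3.12 and -3.13 in NSCs, and -2.93 and -2.88 in astrocytes. The glioma cell arrays lay above the 4 arrays of normal cells, which were close to each other, and the tissue arrays were spread. Glioma cells were above astrocytes by 2.85 (SE 0.33, adjusted p = 0.00685) and above NSCs by 3.07 (SE 0.33, adjusted p = 0.0346). The tissue did not pass the test against NSCs (adjusted p = 0.0516) or astrocytes (adjusted p = 0.0582).

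Pcdhb2, at chr18:37456962-37457021, was at -0.61, -1.13 and -0.36 in the tissue, -1.96 and -0.94 in glioma cells, -5.81 and -5.71 in NSCs, and -5.60 and -3.88 in astrocytes. NSCs were not well above background, and the tissue was at least 24.5-fold above them (adjusted p = 0.00176). Its probe entered the test of the cells through glioma cells alone. Glioma cells were at least 14.5-fold above NSCs, which did not pass the test (adjusted p = 0.0647). Glioma cells were above astrocytes by 3.29 (SE 0.66, adjusted p = 0.0266) and the tissue was above them by 4.04 (SE 0.55, adjusted p = 0.00278), and 1 of the 2 astrocyte arrays was above background. Pcdhb3, at chr18:37463364-37463423 and spotted 10 times on each array, was at 0.94, -0.53 and 1.55 in the tissue, 0.85 and 1.88 in glioma cells, -2.03 and -3.52 in NSCs, and -4.02 and -2.02 in astrocytes. Glioma cells were above astrocytes by 4.38 (SE 0.86, adjusted p = 0.0248), and the tissue was above NSCs by 3.43 (SE 0.83, adjusted p = 0.0294) and above astrocytes by 3.67 (SE 0.83, adjusted p = 0.0181).

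Pcdhb9, at chr18:37562726-37562785, was at -0.35, -2.15 and -1.01 in the tissue, -2.16 and -1.09 in glioma cells, -4.17 and -5.80 in NSCs, and -4.66 and -5.22 in astrocytes. Both normal groups lay below both tumour groups with no overlap, and the differences were 3.32 in glioma cells against astrocytes (SE 0.67, adjusted p = 0.0271), 3.81 in the tissue against NSCs (SE 0.67, adjusted p = 0.01) and 3.77 in the tissue against astrocytes (SE 0.67, adjusted p = 0.00769). Pcdhb7, at chr18:37504330-37504389, was at 1.12, 0.27 and 1.5 in the tissue, 1.24 and 2.39 in glioma cells, -0.86 and -2.14 in NSCs, and -1.04 and -1.88 in astrocytes. It was above astrocytes by 3.27 in glioma cells (adjusted p = 0.0246) and by 2.42 in the tissue (adjusted p = 0.022), and above NSCs by 2.46 in the tissue (adjusted p = 0.0269). Pcdhb8, at chr18:37517204-37517263, was at -1.96, -2.0 and -1.17 in the tissue, -2.53 and -2.35 in glioma cells, -5.20 and -5.59 in NSCs, and -3.13 and -4.86 in astrocytes. The tissue was above NSCs by 3.69 (SE 0.52, adjusted p = 0.00442) and above astrocytes by 2.29 (SE 0.52, adjusted p = 0.0181).

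Pcdhb11, at chr18:37583696-37583755, was at -4.74, -4.51 and -4.73 in the tissue, -3.41 and -2.56 in glioma cells, -4.59 and -5.52 in NSCs, and -4.76 and -5.02 in astrocytes. It was highest on both glioma cell arrays, above astrocytes by 1.90 (SE 0.47, adjusted p = 0.0448), and the tissue was below glioma cells by 1.67 (a log2 difference of -1.67, SE 0.38, adjusted p = 0.0251). Pcdhb13, at chr18:37605358-37605417, was at -3.17, -2.83 and -1.92 in the tissue, -3.60 and -2.73 in glioma cells, -5.34 and -7.09 in NSCs, and -3.11 and -4.56 in astrocytes. It was lowest in NSCs, where it was not well above background, and the tissue was at least 5.89-fold above them (adjusted p = 0.0129). Pcdhb4 was above astrocytes in the tissue by 3.08 (SE 0.92, adjusted p = 0.0469), and Pcdhb14 was above NSCs in the tissue by 2.52 (SE 0.65, adjusted p = 0.0356). Pcdhb22, at chr18:37680669-37680728, was at -1.14, -0.81 and -1.35 in the tissue, -0.51 and -0.68 in glioma cells, -0.33 and -0.74 in NSCs, and 0.31 and -0.25 in astrocytes, and its tissue level was below that of astrocytes (log2 difference -1.13, SE 0.31, adjusted p = 0.0335).

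Some beta genes were not called in any comparison. Pcdhb21, at chr18:37675857-37675916, was at 1.45, 1.86 and 1.69 in the tissue, 2.35 and 2.60 in glioma cells, 2.22 and 1.1 in NSCs, and 2.77 and 1.74 in astrocytes. Both glioma cell arrays lay above all tissue and NSC arrays, and the other pairs of groups overlapped. Glioma cells differed from astrocytes by 0.22 (95% interval -1.12 to 1.56). Pcdhb6 was at 1.06, 0.81 and 1.53 in the tissue, 1.52 and 2.08 in glioma cells, 0.63 and -0.33 in NSCs, and 1.12 and 0.31 in astrocytes. All arrays other than NSC array 2 lay above 0, and no comparison passed the test. For Pcdhb18, with -0.09, -0.47 and -0.23 in the tissue, -0.48 and 1.35 in glioma cells, 0.01 and -0.67 in NSCs, and 0.91 and -0.20 in astrocytes, the difference of glioma cells from astrocytes was 0.08 (95% interval -1.74 to 1.91). Pcdhb20 had 1.18, 0.20 and 1.40 in the tissue, 0.89 and 1.19 in glioma cells, 1.62 and 0.55 in NSCs, and 1.1 and -0.05 in astrocytes, and glioma cells differed from NSCs by -0.05 (95% interval -1.43 to 1.34). Pcdhb17 had 0.20, 0.17 and 1.02 in the tissue, 0.25 and 0.92 in glioma cells, -0.25 and -1.36 in NSCs, and 0.29 and 0.34 in astrocytes, and the tissue differed from glioma cells by -0.12 (95% interval -1.14 to 0.89). The other beta genes, Pcdhb1, Pcdhb15, Pcdhb16 and Pcdhb19, were not called in any comparison.

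Along the cluster, the first 12 genes, from Pcdhb1 to Pcdhb12, had differences of 0.87 to 5.14 in glioma cells against astrocytes, with a median of 3.28. The last 10, from Pcdhb13 to Pcdhb22, had -0.63 to 1.37, with a median of 0.26. This division was chosen after the values were seen. Spearman's rho between a gene's place in the cluster and its difference was -0.77 over the 22 genes, and that between its astrocyte level and its difference was -0.57. These are descriptions over genes that share the same arrays, and the level and the difference share the astrocyte values. In glioma cells against NSCs the medians were 3.19 for the first 12 and 1.09 for the last 10, in the tissue against NSCs 2.79 and 0.73, and in the tissue against astrocytes 2.75 and 0.27. The ranges of the 2 parts overlapped. They were 0.73 to 4.37 and -0.24 to 3.05 in glioma cells against NSCs. In the tissue against NSCs they were 0.20 to 5.06 and -0.57 to 3.58, and against astrocytes 0.23 to 4.71 and -1.13 to 1.20. In the tissue against glioma cells the medians were -0.60 and -0.12, with a rho of 0.06.

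**Figure D3:**
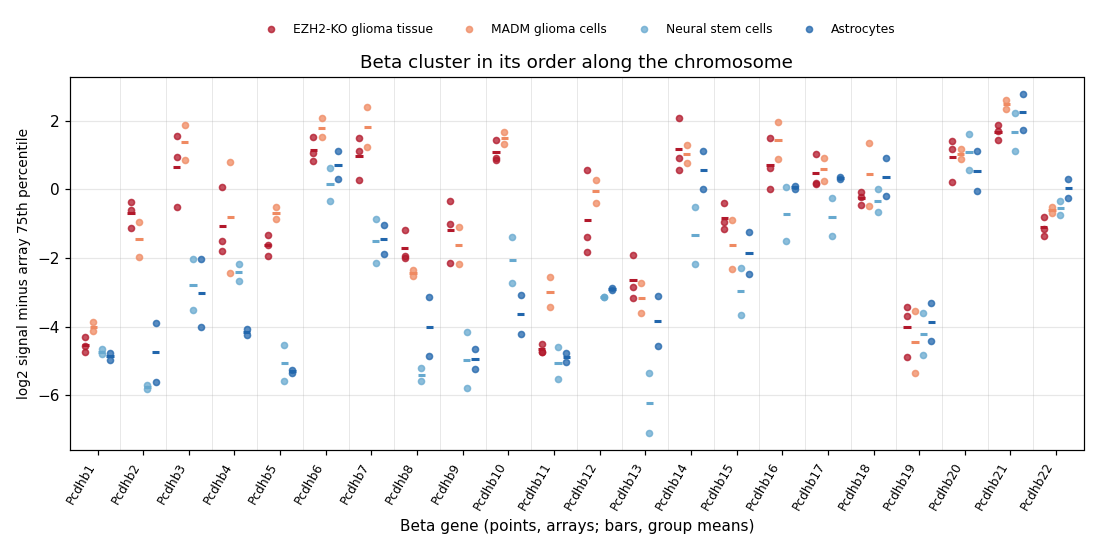
Levels of the 22 beta genes in their order along chromosome 18 (x axis); the y axis gives log2 signal minus the array's 75th percentile, points are arrays and bars are group means. From Pcdhb2 to Pcdhb12 the tissue and glioma cells lie above NSCs and astrocytes for most genes. The median difference of glioma cells from astrocytes is 3.28 over the first 12 genes and 0.26 over the last 10, a division chosen after the values were seen.

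Between glioma cells and astrocytes, the calls of Pcdhb5, Pcdhb10 and Pcdhb12 were kept in all 6 fits without 1 array. The calls of Pcdhb9 and Pcdhb11 were lost without any array of these 2 groups. Pcdhb3 lost its call without astrocyte array 1 or either array of glioma cells, Pcdhb7 without glioma cell array 2 or either astrocyte array, and Pcdhb2 in every fit other than that without astrocyte array 2. The calls of Pcdhb5 and Pcdhb12 over NSCs were lost in all 6 fits, where their differences were 3.84 to 4.90 and 2.73 to 3.40. Each of these fits left 1 array in a group, and fewer of all tested probes were called in each of them too. Over the whole family, fewer probes were called between glioma cells and astrocytes without any 1 array of these groups than with all arrays. Fewer of all tested probes were called in those fits too. The median difference of the tested protocadherins was 0.86 to 1.41 in them and 1.00 with all arrays.

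In the tissue, the calls of Pcdhb2, Pcdhb5 and Pcdhb10 over both NSCs and astrocytes and that of Pcdhb8 over NSCs were kept in all 9 fits. Pcdhb2 had entered these fits through the tissue and glioma cells alone. Pcdhb9 and Pcdhb13 were lost over NSCs without NSC array 2, and Pcdhb9 over astrocytes without astrocyte array 2. The calls of Pcdhb3 and Pcdhb7 over NSCs were lost without tissue array 1 or 3 or NSC array 2, and that of Pcdhb14 also without tissue array 2. Over astrocytes, Pcdhb3 was lost without tissue array 1 or 3 or astrocyte array 1, Pcdhb7 also without astrocyte array 2, and Pcdhb8 without tissue array 3 or astrocyte array 2. Pcdhb4 was kept only without a glioma cell array, and Pcdhb22 only without tissue array 2 or an NSC array. The lower Pcdhb11 in the tissue was lost without any tissue array or glioma cell array 2. Over the whole family, 8 probes were called in the tissue over NSCs without tissue array 1 and 13 with all arrays. Of all tested probes, 11.4% and 16.7% were called in these fits. Fewer were called over NSCs without NSC array 2 and over astrocytes without astrocyte array 2, among all tested probes too. The median differences of the tested protocadherins were then 0.46 beside 0.86 over NSCs and 1.42 beside 1.20 over astrocytes.

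The gamma cluster was read by 5 probes outside its shared end, each listing 1 protocadherin, and by 2 in it, all along chr18:37823813-38001437 (mm9). None of the 5 was called in any comparison, where 0.334% to 11.5% of all tested probes were called in a given direction. The median difference of the 5 ranged from -0.53 in NSCs against astrocytes to 0.52 in glioma cells against NSCs. These probes were dim, with 2 of the 5 well above background on NSC array 2 and 3 on glioma cell array 2. The absence of calls therefore does not show equal levels. Pcdhga1, at chr18:37823813-37823872, was at -3.64, -3.26 and -2.11 in the tissue, -3.41 and -2.21 in glioma cells, -3.23 and -3.43 in NSCs, and -2.06 and -2.50 in astrocytes. Pcdhgb1, at chr18:37842433-37842492, was at -3.46, -3.35 and -3.96 in the tissue, -3.44 and -3.53 in glioma cells, -4.09 and -5.0 in NSCs, and -3.74 and -4.30 in astrocytes. Glioma cells differed from astrocytes by -0.53 for Pcdhga1 (95% interval -1.72 to 0.65) and by 0.54 for Pcdhgb1 (95% interval -0.51 to 1.58). Pcdhga5 was at -5.31, -5.36 and -4.95 in the tissue, -4.64 and -4.75 in glioma cells, -4.83 and -4.73 in NSCs, and -5.03 and -4.50 in astrocytes, with a difference of glioma cells from astrocytes of 0.07 (95% interval -0.71 to 0.85). Its probe was above background on every array only in astrocytes. Pcdhgc5, of the C type that is expressed without random choice in neurons, was at -3.97, -4.35 and -5.07 in the tissue, -4.34 and -4.87 in glioma cells, -4.70 and -5.61 in NSCs, and -4.31 and -4.29 in astrocytes. Pcdhga10 was at -4.75, -4.17 and -4.58 in the tissue, -4.85 and -4.61 in glioma cells, -3.97 and -4.23 in NSCs, and -4.49 and -4.20 in astrocytes, all groups lying within a narrow span.

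Both probes named Pcdhga9 lie beyond the Pcdhgc5 probe, at chr18:37999725-37999784 and chr18:38001378-38001437, and list transcripts of several gamma genes. In RefSeq 21 of 22 gamma genes end within 10 bases of each other, so these probes may read the transcripts of the whole gamma cluster and are not evidence on Pcdhga9 alone. Probe 1 was at 1.57, 1.05 and 1.32 in the tissue, -0.17 and 0.26 in glioma cells, 0.72 and 1.24 in NSCs, and 1.43 and 1.38 in astrocytes. Both glioma cell arrays lay below all 7 others. Glioma cells were lower than astrocytes (log2 difference -1.36, SE 0.33, adjusted p = 0.0441), and the tissue was above glioma cells by 1.27 (SE 0.30, adjusted p = 0.0285). The first call was lost without any glioma cell or astrocyte array, and the second without tissue array 1 or 3 or either glioma cell array. Probe 2 was at 6.49, 6.47 and 6.73 in the tissue, 6.65 and 6.83 in glioma cells, 6.98 and 6.29 in NSCs, and 7.21 and 7.20 in astrocytes, and it was not called in any comparison, with differences of -0.64 to 0.10. Both probes of the shared end were thus lower in glioma cells than in astrocytes, and only probe 1 was called. Probe 2 differed by -0.47 (95% interval -1.32 to 0.39), and the difference between the probes was not tested.

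Among the single protocadherins, Pcdh17 and Pcdh11x were low in astrocytes, and Pcdh12 and Pcdh20 were high in the tissue alone. Of the 19 probes, 17 were tested between the cell groups and 18 with the tissue. In glioma cells 4 were higher than in astrocytes, and the same number in NSCs, where 9.82% and 8.22% of all tested probes were higher. In both cases these were Pcdh17 and the 3 probes of Pcdh11x. None was called between glioma cells and NSCs, where the median was -0.25 and 0.613% of all tested probes were higher and 0.334% lower. The tissue had 9 probes higher than astrocytes, where 11.0% of all tested probes were higher. It had 2 higher than NSCs and glioma cells each, Pcdh12 and Pcdh20, where 7.26% and 7.48% of all were higher. Pcdh12 had entered through the tissue alone, which favours its calls. Pcdh12 was not tested between the cell groups, where it was not above background.

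Pcdh11x, on the X chromosome, encodes a protein of the delta-1 group, which binds protein phosphatase through its tail. Its probe 2, at chrX:117515420-117515479, was at -1.0, -2.10 and -1.20 in the tissue, -2.41 and -1.96 in glioma cells, -1.35 and -1.0 in NSCs, and -7.70 and -7.71 in astrocytes. Both astrocyte arrays were far below the other 7 and not well above background, so their close values do not measure agreement between replicates. NSCs were at least 20.2-fold above them (adjusted p = 0.00359), the tissue at least 16.9-fold (adjusted p = 0.000277) and glioma cells at least 10.1-fold (adjusted p = 0.00239). Probe 2 entered the tests only through the groups other than astrocytes, which favours these calls, so they are given as a description. All 3 calls were kept in every fit without 1 array, but those fits used the same set of probes. Probe 1, at chrX:117405435-117405494, was at 0.25, -0.41 and 0.48 in the tissue, -0.07 and 0.40 in glioma cells, 1.04 and 1.00 in NSCs, and -1.99 and -1.66 in astrocytes. It was above background everywhere, and the differences from astrocytes were 2.00 in glioma cells (SE 0.32, adjusted p = 0.0143), 2.85 in NSCs (SE 0.32, adjusted p = 0.00774) and 1.94 in the tissue (SE 0.34, adjusted p = 0.00701). Probe 3, at chrX:118019923-118019982, was at -1.47, -3.32 and -1.99 in the tissue, -4.55 and -2.99 in glioma cells, -2.38 and -2.83 in NSCs, and -6.78 and -7.57 in astrocytes. The lower limits against astrocytes were 3.36-fold in glioma cells (adjusted p = 0.02), 7.53-fold in NSCs (adjusted p = 0.0118) and 9.58-fold in the tissue (adjusted p = 0.00259). Probe 3 entered the tests in the same way as probe 2, so its calls too are given as a description. The 3 probes had the same direction against astrocytes and different sizes. For the glioma cells, the call of probe 1 depended on glioma cell array 2 and astrocyte array 1, being lost without either, and that of probe 3 was lost without any of these or astrocyte array 2. The NSC call of probe 3 was lost without either NSC array or astrocyte array 2.

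Pcdh17, of the delta-2 group that binds the WAVE complex and steers axons and synapses, lies at chr14:84933861-84933920. It was at 3.21, 3.54 and 3.83 in the tissue, 3.40 and 4.13 in glioma cells, 4.04 and 2.80 in NSCs, and -3.27 and 0.22 in astrocytes. All 7 arrays of the other groups lay above both astrocyte arrays, which differed from each other more than the replicates of any other group. The differences from astrocytes were 5.29 in glioma cells (SE 1.17, adjusted p = 0.0344), 4.94 in NSCs (SE 1.17, adjusted p = 0.0458) and 5.06 in the tissue (SE 0.92, adjusted p = 0.00822). The tissue call was kept in all 9 fits, and the calls of both cell groups were kept only without astrocyte array 2. Between glioma cells and NSCs the difference was 0.35 (95% interval -2.59 to 3.29). Its promoter is the CG-rich first run above.

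Pcdh9, another delta-1 gene, had 3 probes. Probe 1, at chr14:93959696-93959755, was at -1.86, -2.19 and -1.46 in the tissue, -2.81 and -2.28 in glioma cells, -1.42 and -2.44 in NSCs, and -3.45 and -4.05 in astrocytes. Probe 2, at chr14:93414821-93414880, was at -1.71, -2.31 and -1.58 in the tissue, -4.37 and -3.04 in glioma cells, -2.57 and -3.96 in NSCs, and -5.73 and -5.14 in astrocytes. Probe 3, at chr14:93413428-93413487, was at 1.26, 0.72 and 1.66 in the tissue, 0.07 and 0.75 in glioma cells, 1.60 and -1.29 in NSCs, and -1.95 and -1.86 in astrocytes. All 3 were lowest in astrocytes, without overlap with the tissue or the glioma cells. The tissue was above astrocytes by 1.91 (SE 0.41, adjusted p = 0.0153), 3.57 (SE 0.55, adjusted p = 0.00448) and 3.11 (SE 0.76, adjusted p = 0.0236), while the glioma cells and NSCs were not called, with differences from astrocytes of 1.20 to 2.31 and 1.82 to 2.16. Probe 2 had entered the tests only through the groups other than astrocytes, which favours its call. That call was kept in all 9 fits, that of probe 1 was lost without astrocyte array 2, and that of probe 3 without tissue array 1 or 3 or either astrocyte array.

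Pcdh12, the protocadherin of endothelial junctions, at chr18:38426868-38426927, was at -2.82, -3.45 and -2.13 in the tissue, -7.30 and -7.09 in glioma cells, -6.85 and -7.03 in NSCs, and -7.56 and -7.61 in astrocytes. It was well above background on all 3 tissue arrays and on no cell array. The tissue was at least 5.01-fold above glioma cells (adjusted p = 0.000828), at least 5.71-fold above NSCs (adjusted p = 0.00109) and at least 6.58-fold above astrocytes (adjusted p = 0.00055). As it entered the test through the tissue alone, these p-values add nothing to its levels. The mean over 8 endothelial and pericyte markers was also higher in the tissue, at -0.58 to 0.09 there and -4.49 to -1.21 on the cell arrays. All 8 were above background on every tissue array, and Cldn5 and Rgs5 were above it only there. Others of the list did not separate the tissue: Pecam1 was at -2.37 to -1.67 in the tissue and -2.74 to -1.99 on the cell arrays, Kdr at 1.75 to 2.73 in the tissue and 2.37 to 2.87 on the cell arrays, and Pdgfrb was lower in the tissue, at -1.63 to -0.63, than in astrocytes, at 1.28 and 2.45. The part of endothelial RNA in the result was not tested.

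Pcdh20, at chr14:88865889-88865948, was at 1.66, 0.16 and 1.78 in the tissue, -4.87 and -1.78 in glioma cells, -2.72 and -4.10 in NSCs, and -3.37 and -4.05 in astrocytes. All 3 tissue arrays lay above all 6 cell arrays. The differences were 4.52 over glioma cells (SE 0.93, adjusted p = 0.018), 4.61 over NSCs (SE 0.93, adjusted p = 0.0163) and 4.91 over astrocytes (SE 0.93, adjusted p = 0.00976). The calls were lost without tissue array 1 or 3 or glioma cell array 1 over glioma cells, without tissue array 1 or NSC array 2 over NSCs, and without astrocyte array 2 over astrocytes. The mean over neuronal markers was higher in the tissue too, at 2.07 to 3.69 there and -1.68 to 0.57 on the cell arrays, and so was that over mature oligodendrocyte markers, at 1.87 to 3.36 in the tissue and -2.14 to 0.19 on the cell arrays. Not every neuronal marker separated the tissue, as Stmn2 was at 1.42 to 4.32 in the tissue and 4.54 and 2.69 in astrocytes. The part of these cell types in the result was not tested. Its promoter, with 3 CG, is the second run above.

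**Figure D4:**
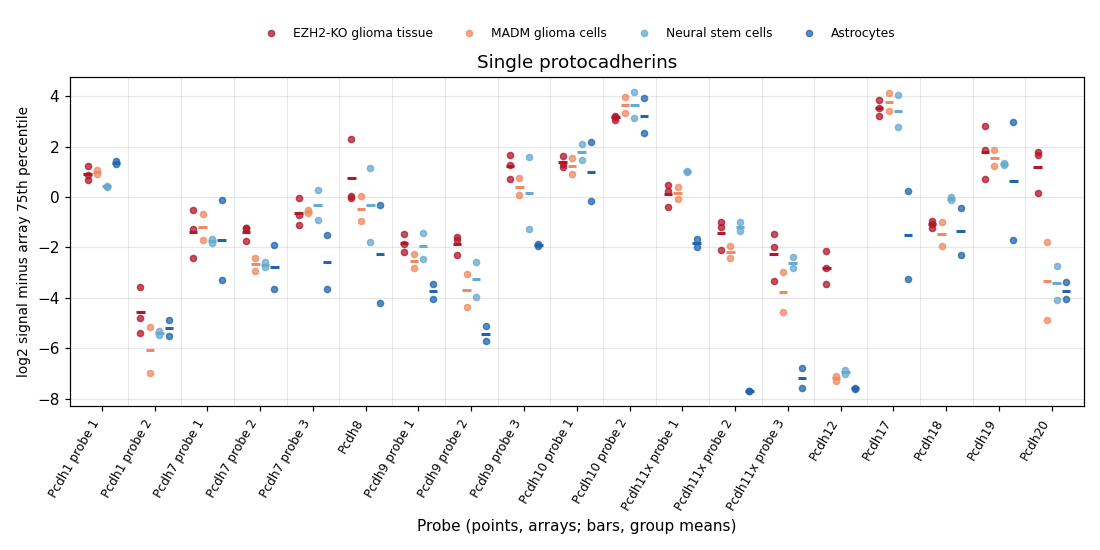
Levels of the 19 probes of single protocadherins (y axis, log2 signal minus the array's 75th percentile); points are arrays and bars are group means. The 3 Pcdh11x probes, Pcdh17 and the 3 Pcdh9 probes are lowest in astrocytes, and Pcdh12 and Pcdh20 are high on the 3 tissue arrays alone.

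The remaining single genes were not called in any comparison. Pcdh10, a delta-2 protein that recruits the WAVE complex to cell contacts, had probe 1 at chr3:45186832-45186891 with 1.19, 1.62 and 1.32 in the tissue, 0.90 and 1.56 in glioma cells, 2.12 and 1.47 in NSCs, and 2.17 and -0.15 in astrocytes. Its probe 2, at chr3:45196739-45203246, was at 3.06, 3.18 and 3.23 in the tissue, 3.36 and 3.98 in glioma cells, 4.16 and 3.13 in NSCs, and 3.92 and 2.55 in astrocytes. The groups overlapped, apart from the tissue and glioma cells on probe 2, and glioma cells differed from astrocytes by 0.22 (95% interval -1.78 to 2.22) and 0.43 (95% interval -1.1 to 1.97).

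Pcdh19, the X-linked delta-2 gene whose human mutations cause an epilepsy, at chrX:130122356-130122415, was at 1.88, 0.71 and 2.82 in the tissue, 1.87 and 1.21 in glioma cells, 1.28 and 1.34 in NSCs, and -1.70 and 2.96 in astrocytes. The astrocyte arrays held both the lowest and the highest of the 9 levels, so that the interval of glioma cells against astrocytes ran from -2.72 to 4.54. Pcdh8, a protein of activity-dependent synapses, at chr14:80166728-80166787, was at 2.29, -0.02 and 0.03 in the tissue, -0.94 and 0.03 in glioma cells, 1.14 and -1.78 in NSCs, and -0.33 and -4.23 in astrocytes. The normal cells were again split between replicates, and the interval of glioma cells against astrocytes ran from -2.0 to 5.65. Astrocyte array 1, low in Pcdh19 and high in Pcdh8 beside array 2, was also the one with the lower fibroblast marker mean, 1.11 against 5.51, and the part of this in the results was not tested.

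Pcdh7, a delta-1 gene, had 3 probes. Probe 1, at chr5:58120201-58120260, was at -2.42, -0.52 and -1.26 in the tissue, -0.67 and -1.69 in glioma cells, -1.65 and -1.82 in NSCs, and -3.29 and -0.10 in astrocytes. Probe 2, at chr5:58520529-58520588, was at -1.22, -1.74 and -1.25 in the tissue, -2.41 and -2.94 in glioma cells, -2.57 and -2.79 in NSCs, and -3.64 and -1.92 in astrocytes. On all 3 probes astrocyte array 1 was the lowest of the 9. Probe 3, at chr5:58523420-58523479, was at -0.72, -1.13 and -0.05 in the tissue, -0.62 and -0.53 in glioma cells, 0.28 and -0.92 in NSCs, and -3.64 and -1.49 in astrocytes, with a difference of 1.99 in glioma cells against astrocytes (95% interval 0.01 to 3.97, adjusted p = 0.131).

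Pcdh18, a delta-2 gene, at chr3:49547305-49547364, was at -1.23, -1.06 and -0.95 in the tissue, -1.94 and -1.0 in glioma cells, -0.14 and -0.01 in NSCs, and -2.29 and -0.44 in astrocytes. NSCs held both of the highest levels, and their difference from astrocytes was 1.29 (95% interval -0.42 to 3.00). Pcdh1, a delta-1 gene known from epithelia, had probe 1 at chr18:38356348-38356407 with 0.67, 1.24 and 0.86 in the tissue, 1.07 and 0.91 in glioma cells, 0.46 and 0.42 in NSCs, and 1.43 and 1.29 in astrocytes. The astrocyte arrays were the highest and the NSC arrays the lowest, and NSCs differed from astrocytes by -0.92 (95% interval -1.60 to -0.24, adjusted p = 0.0742). Pcdh1 probe 2, at chr18:38349270-38349329, lay between -6.98 and -3.56 and was well above background on 2 of the 3 tissue arrays, on neither glioma cell array and on 1 array each of NSCs and astrocytes, so it was not tested.

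Of 17 genes that act on protocadherin promoter choice and chromatin, 16 were tested. In glioma cells 4 were higher than in astrocytes and none was lower, beside 9.82% and 9.95% of all tested probes. Dnmt3b, the methyltransferase that methylates variable exon promoters early in development, was at -0.94, -0.26 and 0.01 in the tissue, 1.22 and 0.52 in glioma cells, -0.08 and 0.55 in NSCs, and -1.48 and -1.71 in astrocytes. It was above astrocytes by 2.46 in glioma cells (SE 0.39, adjusted p = 0.0149) and by 1.83 in NSCs (SE 0.39, adjusted p = 0.0365). Rad21, the cleaved subunit of cohesin, was at 4.20, 4.14 and 4.23 in the tissue, 5.93 and 5.47 in glioma cells, 4.36 and 5.46 in NSCs, and 3.95 and 3.37 in astrocytes. It was above astrocytes by 2.04 in glioma cells (SE 0.48, adjusted p = 0.0398), and the tissue was below glioma cells (log2 difference -1.51, SE 0.38, adjusted p = 0.0353). Smchd1, a chromatin protein that represses the clusters, was above astrocytes by 1.31 in glioma cells (adjusted p = 0.0464), and the tissue was below glioma cells (log2 difference -1.15, adjusted p = 0.0434). Wiz, which binds the G9a and GLP methyltransferases, was above astrocytes by 1.33 in glioma cells (adjusted p = 0.0357) and by 1.25 in NSCs (adjusted p = 0.0464).

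Setdb1, a histone H3 lysine methyltransferase that acts on the cluster, was above astrocytes by 1.41 in NSCs (adjusted p = 0.0439) and by 1.04 in the tissue (adjusted p = 0.0357). Rest, the repressor of neuronal genes, was below astrocytes in the tissue (log2 difference -1.30, adjusted p = 0.0399). None of the 16 was called between glioma cells and NSCs, where 0.613% of all tested probes were higher and 0.334% lower. None was called between the tissue and NSCs either, where 7.26% of all were higher and 9.42% lower. Ctcf, which binds the variable promoters, was at 2.38, 2.31 and 2.65 in the tissue, 2.89 and 3.01 in glioma cells, 2.84 and 3.32 in NSCs, and 2.16 and 1.91 in astrocytes, and its difference of 0.92 in glioma cells over astrocytes did not pass the test (adjusted p = 0.0933). The median over the list was 0.68 in glioma cells against astrocytes, where that of all tested probes was 0.16, and -0.67 in the tissue against glioma cells, where it was -0.14.

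Of 28 partner and signalling genes, 25 were tested in the cells, where 4 were higher and 3 lower in glioma cells than in astrocytes, none was called between glioma cells and NSCs, and 4 were higher and 1 lower in NSCs than in astrocytes. Among all tested probes 9.82% were higher and 9.95% lower in glioma cells than in astrocytes, and 8.22% higher and 7.89% lower in NSCs, so the counts of the list lie near the background. Wasf1, a subunit of the WAVE complex that delta-2 protocadherins bind, was at 3.49, 4.03 and 3.49 in the tissue, 3.92 and 4.10 in glioma cells, 4.48 and 3.54 in NSCs, and 1.76 and 0.66 in astrocytes. It was above astrocytes by 2.80 in glioma cells (SE 0.51, adjusted p = 0.0213), 2.79 in NSCs (SE 0.51, adjusted p = 0.0249) and 2.46 in the tissue (SE 0.43, adjusted p = 0.00724). Fyn, a Src family kinase, was at 2.83, 3.68 and 3.69 in the tissue, 3.45 and 3.58 in glioma cells, 3.22 and 2.83 in NSCs, and 0.61 and -0.22 in astrocytes. Its difference from astrocytes was 3.32 in glioma cells (adjusted p = 0.00679), 2.83 in NSCs (adjusted p = 0.0123) and 3.20 in the tissue (adjusted p = 0.00194). Celsr3, a cadherin of the Flamingo type, was above astrocytes by 4.19 in glioma cells (adjusted p = 0.026), 4.56 in NSCs (adjusted p = 0.0244) and 4.86 in the tissue (adjusted p = 0.00405).

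Other partner genes ran the other way. Celsr1, also of the Flamingo type, was at -2.93, -0.80 and -3.35 in the tissue, -0.51 and -1.63 in glioma cells, 3.08 and 0.31 in NSCs, and 3.25 and 2.68 in astrocytes. It was lower than in astrocytes in glioma cells (log2 difference -4.03, SE 0.96, adjusted p = 0.041) and in the tissue (-5.32, SE 0.98, adjusted p = 0.00859), and lower in the tissue than in NSCs (-4.05, SE 0.98, adjusted p = 0.0291). Ptk2b, the focal adhesion kinase that alpha and gamma constant domains inhibit, was at 2.42, 1.28 and 0.65 in the tissue, -2.63 and -3.20 in glioma cells, -3.07 and -3.54 in NSCs, and -0.49 and 1.28 in astrocytes. It was lower than in astrocytes in glioma cells (log2 difference -3.31, adjusted p = 0.0241) and in NSCs (-3.70, adjusted p = 0.0212), and the tissue was above glioma cells by 4.36 (adjusted p = 0.00543) and above NSCs by 4.75 (adjusted p = 0.00403). Microglia markers, also higher in the tissue and astrocytes than in the other groups, averaged 3.09 to 4.28 in the tissue, -3.35 and -3.19 in glioma cells, 0.10 and -1.73 in NSCs and 3.43 and 3.82 in astrocytes. Itgam of this list did not separate the groups, at 4.29 to 5.08 over all arrays. The part of the microglia markers in the Ptk2b result was not tested.

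Of 26 partner genes tested with the tissue, 2 were higher than in glioma cells and none was lower. Among all tested probes 7.48% were higher and 8.26% lower. Against NSCs 1 was higher and 1 lower, where 7.26% of all tested probes were higher and 9.42% lower. Against astrocytes 5 were higher and 3 lower, where 11.0% of all tested probes were higher and 11.5% lower. Fat4, a giant cadherin, was lower in glioma cells than in astrocytes (log2 difference -1.24, adjusted p = 0.0394) and higher in the tissue than in glioma cells by 1.16 (adjusted p = 0.0233). Fat1, of the same kind, was lower in the tissue than in astrocytes (log2 difference -2.93, adjusted p = 0.0216), as was N-cadherin, Cdh2 (-1.39, adjusted p = 0.0112). Fat3 was above astrocytes by 1.89 in NSCs (adjusted p = 0.0438). The median over the partner list was 0.19 in glioma cells against astrocytes, where that of all tested probes was 0.16.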

How the data were processed

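RNA was extracted with TRIzol, and 200 ng per sample was labelled with Cy3 and hybridised in 1 colour to Agilent SurePrint G3 Mouse GE 8x60K arrays, per the labels' protocols. The scanner files hold intensity values that the authors obtained with Agilent Feature Extraction, per the file headers, on build mm9; the version is 10.7.1.1 for the cells and 10.7.3.1 for the tissue, which the submitters' processing notes also name. The processed intensity is corrected for background and not scaled between arrays, per the file headers. The deposited series table holds log2 values that lie within 0.01 of log2 processed intensity for at least 99.0% of probes on each array, with column medians of 5.08 to 6.28, so it is uncentred and unscaled; its direction needs no settling in 1 colour.

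Control spots and outlier spots were left out, spots of 1 probe were averaged, and log2 processed intensity was centred on each array's 75th percentile. Differences were fitted with limma 3.58.1 in R 4.3.3 (lmFit, eBayes, Benjamini-Hochberg over all tested probes): the 6 cell arrays in 1 fit (3 residual degrees of freedom), and all 9 arrays (5) for the tissue. The number of arrays limits the precision. The fit was tested on simulated data. The members, the gene lists and the rule for named genes (all single genes, and per cluster and comparison up to 5 calls a direction, the 2 brightest probes and the least changed one) were chosen with earlier results of these data known, and nothing in them is independent evidence. Genes are named as in the files, with mm9 positions of the probes; all 44 names are in RefSeq, and exon or UTR annotation on mm9 was not used here. Alternatives were another background correction, quantile normalization, the deposited values, other filters, 1 probe per gene, other arrays in the fit, the replicate number as a block, and each array left out. Same-numbered arrays did not deviate together (r of -0.155 to 0.115), so the numbers were not taken to pair them.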

Additional observations from a re-analysis of the deposited data

How the results depend on the processing

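No call changed direction under any alternative run. Of the 64 calls over the 6 comparisons, quantile normalization lost 5, the deposited unscaled values 8, the absence of a filter 9 and the replicate number as a block 25, while the normexp correction lost 5 of those between cells and 5 of those in the tissue. Leaving out each array in turn gave 5 to 16 probes called in glioma cells against astrocytes, 0 in every fit against NSCs, 2 to 5 in NSCs against astrocytes, and in the tissue 1 to 5 against glioma cells, 5 to 14 against NSCs and 14 to 22 against astrocytes. For glioma cells against NSCs, where 2 probes were called, no filter and a stricter filter (well above background in both groups) left 1 each. Of all tested probes, 0.275% and 0.282% were called with these, beside 0.947%. For NSCs against astrocytes, with 5 called, quantile normalization, the deposited values and no filter gave 3, the stricter filter gave 2 and 1 probe per gene gave 1. Of all tested probes these called 15.6%, 11.3%, 7.84%, 12.8% and 14.6%, beside 16.1%. The stricter filter, which tests fewer probes, gave 7 in place of 13 for the tissue against NSCs and 14 in place of 22 against astrocytes. Of all tested probes it called 14.0% beside 16.7% and 19.1% beside 22.6%. The cause of the other moves was not tested.

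With the replicate number as a block, 0 in place of 2 were called for glioma cells against NSCs, where no probe at all was called. For the tissue against glioma cells, NSCs and astrocytes, 2 in place of 4, 8 in place of 13 and 12 in place of 22 were called. Of all tested probes, 9.12% beside 15.7%, 9.13% beside 16.7% and 12.4% beside 22.6% were called in these 3. For the tissue the block also takes out tissue array 3, which has no partner, and leaving out that array alone gave 2, 9 and 15. Of all tested probes, 11.1%, 11.2% and 14.6% were called without that array. The arrays share only a number. The tissue files hold no mean signal, so for the tissue the normexp correction was run on median signal, an alternative chosen after the files were seen. Slide and scan could not be fitted as a block, since all cells share 1 slide and all tissue the other.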

Other observations

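The alpha cluster has a shared end too, and a probe named Pcdhac2 at chr18:37347235-37347294 (mm9), outside the rule for the members, lists transcripts of Pcdhac2, Pcdha9, Pcdha4 and Pcdhac1. In RefSeq 13 of 14 alpha genes end within 10 bases of each other. It was at 2.82, 1.5 and 2.28 in the tissue, 2.25 and 2.69 in glioma cells, 1.41 and 0.24 in NSCs, and 1.57 and 0.53 in astrocytes. It was not called in any comparison, and glioma cells were above astrocytes by 1.42 (SE 0.56, adjusted p = 0.127). A probe named Pcdhac1, at chr18:37249950-37250009, was well above background on 0 of the 9 arrays.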
